A study of Mus musculus with 6 samples.

Results

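Melanocyte pigment genes are the genes that make melanin inside melanosomes and the regulators that switch them on in pigment cells. The 10 genes followed here were chosen by symbol for that role: Tyr, Tyrp1, Dct, Slc45a2, Oca2, Pmel, Mlana, Mc1r, Mitf and Sox10. All 10 were found among the 23518 genes measured, and 9 of them passed the filter on low values and were tested. They were measured by RNA sequencing of mouse ear skin 1 day after topical imiquimod, an agonist of Toll-like receptor 7 used to provoke psoriasis-like inflammation, given as 10 mg of a 5% cream. There were 3 wild-type (WT) samples and 3 samples labelled HdR, read from the series' design text as mice whose HOIL1 protein lacks the RING1 domain. HOIL1, the product of Rbck1, is a subunit of the complex that assembles linear ubiquitin chains. Every sample was treated with imiquimod, so the comparison says nothing of untreated skin, and the sources used here do not give strain, coat colour, age, hair cycle stage or how the allele was made. Nothing in the labels says that the samples of a genotype came from separate animals, so the p-values measure only the spread between samples, which may be technical.

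Melanin is made from tyrosine in melanosomes, organelles of melanocytes. Tyrosinase catalyses the rate-limiting step, and the related enzymes TYRP1 and DCT act on later intermediates. The transcription factor MITF, whose gene is in turn activated by SOX10, drives transcription of these enzyme genes through E-box elements, and MC1R signalling raises MITF through cyclic AMP. In mouse skin pigment cells sit in growing hair bulbs, and ear skin also keeps melanocytes outside the follicles.

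In HdR skin 3 of the 9 pigment genes tested fell, each to less than the lowest WT sample: Tyr, Tyrp1 and the transporter gene Slc45a2. Their mean coverage was 2.79-fold, 2.21-fold and 4.92-fold higher in WT than in HdR. Of all genes tested 17.9% were called lower, and in 30.7% every HdR value lay under every WT value. The separation by itself thus does not set these 3 apart. Slc45a2 entered the test through its WT samples only, and its HdR values rest on the equivalent of 3.72 to 7 read pairs. Dct, Mlana, Mitf, Sox10 and Mc1r did not pass the test, and their samples overlapped between the genotypes. Pmel, at 1.67-fold higher in WT, passed in some fits only, and Tyr lost its call when the trend of changes with transcript length was removed. No pigment gene rose.

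Tyr and Tyrp1, which fell, and Dct, which did not pass, are all known targets of MITF, so their promoters are shown with the E-box that MITF binds. Promoter sequences from RefSeq (GRCm38.p6) matched 6 of the 10 members, and the 250 bases before each start site were searched on both strands for CATGTG, for CACGTG and for ACAAAG, a SOX-type motif. CATGTG occurred in 5 of the 6 matched members, all but Mitf, and in 12.3% of all promoter windows of that length. CACGTG occurred in none of them, and in 6.02% of all windows. The longer M-box, which is CATGTG with AGT before it and CT after it, occurred in 7 of 32851 windows (0.0213%), among them those of Tyr and Tyrp1. ACAAAG was found before Tyrp1, Dct and Oca2 (16.5% of all windows). None of the 3 Mitf start sites had any of these motifs in its window. A match describes the letters only and shows no binding.

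The next 2 sequences are the windows before the start sites of Tyr, which fell, and Dct, which did not pass, each read 5′ to 3′ on the strand of the gene. Tyr lies on the minus strand of GRCm38.p6 (window chr7:87493513-87493762), and so does Dct (window chr14:118052247-118052496). Capitals mark CATGTG or its reverse complement and ACAAAG. In Tyr the E-box starts 21 bases before the start site, and in Dct E-boxes start 150 bases and, on the other strand, 232 bases before it.
Tyr promoter: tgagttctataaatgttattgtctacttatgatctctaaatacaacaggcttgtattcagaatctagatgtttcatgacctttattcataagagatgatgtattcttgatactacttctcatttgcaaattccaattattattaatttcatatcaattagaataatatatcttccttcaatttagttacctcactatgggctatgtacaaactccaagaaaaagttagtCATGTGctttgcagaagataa
Dct promoter: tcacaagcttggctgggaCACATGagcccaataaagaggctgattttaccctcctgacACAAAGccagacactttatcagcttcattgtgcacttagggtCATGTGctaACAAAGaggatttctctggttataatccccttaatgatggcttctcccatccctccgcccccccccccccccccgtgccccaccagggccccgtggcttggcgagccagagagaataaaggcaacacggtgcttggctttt

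Set side by side in windows of 30 bases, with the E-box in capitals, the flanks could be compared. E-boxes on the other strand, which Dct, Oca2 and Mc1r had, were left out. The windows are chr7:87493516-87493545 (minus strand), chr4:80834155-80834184 (plus), chr14:118052379-118052408 (minus) and chr8:123407019-123407048 (plus). Tyr and Tyrp1 carried the full M-box, and Dct had GGT in place of AGT before its E-box. Slc45a2, Pmel, Mlana and Sox10 had no promoter entry, and a link between motifs and changes was not tested.
Tyr: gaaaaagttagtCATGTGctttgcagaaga
Tyrp1: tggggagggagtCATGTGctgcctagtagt
Dct: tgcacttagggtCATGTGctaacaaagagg
Mc1r: gcacatgcccatCATGTGgccaccctcagg

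The values analysed are coverage, the number of aligned bases summed per gene, scaled to bases per Mb of each library's effective size. Libraries held 4433 to 5966 Mb, or 14.8 to 19.9 M read pairs at 300 bases a pair, and a level of 1 base per Mb rests on 11.7 to 23.6 pairs. Rbck1 checks the genotype label: it lay at 66.6, 55.1 and 64.1 in WT replicates 1 to 3 and fell to 23.9, 13 and 19.7 in HdR replicates 1 to 3, although a sum over the gene does not show the deletion itself. Each change is the HdR mean less the WT mean of log2(value + 1), a scale that shrinks changes of low genes. Changes were tested with limma on all 15049 genes that reached 1 base per Mb in at least 3 libraries, with Benjamini-Hochberg adjustment over those genes. Of these, 17.9% were called lower and 12.7% higher at an adjusted p under 0.05, and in 30.7% every HdR value lay under every WT value. The median change of all genes was -0.13, and -0.41 with scaling to total bases. Changes also moved with transcript length, with a median of 0.64 among the shortest 10% of transcripts and -0.59 among the longest. Values corrected for that trend are therefore given beside the members.

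**Figure D1:**
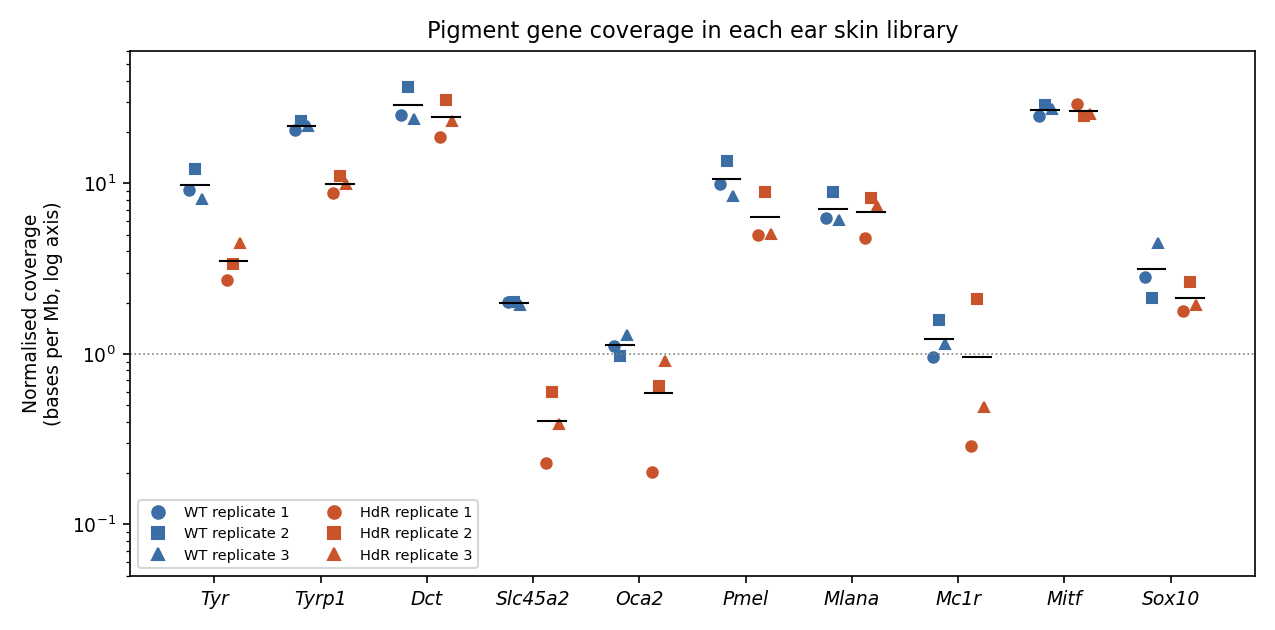
Normalised coverage in bases per Mb (log axis) of the 10 pigment genes in each library; blue symbols are WT, orange symbols HdR, the symbol shape gives the replicate number, black bars are means and the dotted line is the filter at 1 base per Mb. The HdR symbols lie wholly below the WT symbols for Tyr, Tyrp1, Slc45a2 and Oca2 and overlap them for the other 6 genes.

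Of the 9 members tested, 3 were called lower (33.3%, against 17.9% of all genes) and 0 higher (against 12.7%). Slc45a2 entered the test only through its WT libraries, so it had to differ, and without it 2 of 8 members were called lower (25%). The 17.9% of all genes still counts genes that entered in that way, so it is no like share for the 25%. With each of 5 libraries left out in turn 3 members were called, and 4 without HdR replicate 2, while the share of all genes called lower ran from 2.25% to 22.8%. The groups did not overlap for these 3 of 9, a share near the 30.7% of all genes, so the separation by itself does not set the members apart. The median change of the members was -0.38.

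Tyr encodes tyrosinase, without which no melanin is made (ENSMUSG00000004651.6; chromosome 7, 87424771 to 87493512 of GRCm38, minus strand). Its coverage was 9.12, 12.1 and 8.15 in WT replicates 1 to 3 and 2.70, 3.38 and 4.45 in HdR replicates 1 to 3. The highest HdR sample was well under the lowest WT sample, and the deposited sums came to 177 to 233 read pairs in WT and 39.5 to 64.5 in HdR. The log2 change was -1.26 (SE 0.22, limma adjusted p = 0.0103). After length correction it was -0.81 and missed the threshold (limma adjusted p = 0.0534). That correction used the longest transcript, 6042 nt, while the median over coding transcripts of Tyr is 3279 nt.

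Tyrp1 encodes a melanosomal enzyme related to tyrosinase that acts late in eumelanin synthesis and stabilises tyrosinase (ENSMUSG00000005994.14; chromosome 4, 80834123 to 80851719, plus strand). Its coverage came to 20.7, 23.1 and 21.8 in the WT replicates and to 8.75, 10.99 and 9.91 in the HdR replicates. Both groups were tight, with SDs of 1.21 and 1.12, and did not overlap. The change was -1.07 on the log2 scale (SE 0.17, limma adjusted p = 0.00718), and -1.02 with the length trend removed (limma adjusted p = 0.00979).

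Dct, the tautomerase that converts dopachrome and an early marker of the melanoblast lineage, did not pass (ENSMUSG00000022129.4; chromosome 14, 118012790 to 118052244, minus strand). Its values were 25.2, 37.0 and 24.0 in WT and 18.8, 31.0 and 23.3 in HdR. HdR replicate 2 stood above WT replicates 1 and 3, and in both genotypes replicate 2 was the highest. The log2 change was -0.23, with a 95% interval from -0.76 to 0.30 (limma adjusted p = 0.461). After length correction it was -0.02 (limma adjusted p = 0.957).

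Slc45a2 encodes a melanosomal membrane transporter needed for normal tyrosinase activity (ENSMUSG00000022243.10; chromosome 15, 11000721 to 11029233, plus strand). Coverage came to 2.02, 2.02 and 1.92 in the WT replicates and to 0.228, 0.598 and 0.386 in HdR. The gene passed the filter only through its WT samples, and its HdR values rest on the equivalent of 3.72 to 7 read pairs, against 38.9 to 45.5 in WT. Its log2 change was -1.10 (SE 0.18, limma adjusted p = 0.00807). It was -0.98 after length correction (limma adjusted p = 0.019) and -2.12 with a pseudocount of 0.1 in place of 1 (limma adjusted p = 0.0102).

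Oca2, the gene of the pink-eyed dilution chloride channel that regulates melanosome pH, reached 1 base per Mb in 2 libraries only and was not tested (ENSMUSG00000030450.11; chromosome 7, 56239760 to 56536518, plus strand). It stood at 1.11, 0.975 and 1.29 in WT and 0.204, 0.650 and 0.906 in HdR. All HdR values lay under all WT values, although the highest HdR sample, at 0.906, was close to the lowest WT sample, at 0.975. In a fit without the filter its log2 change was -0.45 and did not pass (limma adjusted p = 0.157).

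Pmel encodes the protein that forms the amyloid fibrils on which melanin is laid down (ENSMUSG00000025359.10; chromosome 10, 128704195 to 128720238, plus strand). Its WT replicates lay at 9.88, 13.5 and 8.46 and its HdR replicates at 5.01, 8.96 and 5.05. HdR replicate 2 alone reached into the WT range. The log2 change was -0.68 with a 95% interval from -1.26 to -0.10, and it did not pass after adjustment (limma adjusted p = 0.0712). It passed with the replicate number as a block (limma adjusted p = 0.0125, in a fit that called 27.2% of all genes lower), without HdR replicate 2 (change -0.93, limma adjusted p = 0.0458), with scaling to total bases (-0.97, limma adjusted p = 0.0214) and with the length trend removed (-0.80, limma adjusted p = 0.0473). Exons of Pmel share 105 nt with Dgka and 34 nt with Cdk2 on the opposite strand, and the sources used here do not say whether the libraries were stranded, so reads of these genes cannot be told apart there.

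Mlana encodes MART-1, a small melanosome protein that associates with PMEL (ENSMUSG00000024806.4; chromosome 19, 29697824 to 29708634, plus strand). Its coverage was 6.30, 8.89 and 6.08 in WT and 4.80, 8.19 and 7.37 in HdR, so that HdR replicates 2 and 3 lay inside the WT range. The log2 change of -0.07 had a 95% interval from -0.60 to 0.47 (limma adjusted p = 0.843), and its sign turned with quantile normalisation (0.16). With a transcript of 906 nt, Mlana was the member that the length correction lowered most, to -0.60 (limma adjusted p = 0.0657, and 0.0446 with the replicate block added).

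Mc1r, the receptor for melanocyte-stimulating hormone that sets the balance of dark and yellow pigment, was low and uneven (ENSMUSG00000074037.3; chromosome 8, 123407107 to 123410744, plus strand). Its WT replicates lay at 0.957, 1.58 and 1.15 and its HdR replicates at 0.290, 2.10 and 0.489. The highest and the lowest of the 6 values were both HdR samples. HdR replicate 2 held the equivalent of 24.6 read pairs and HdR replicate 1 of 4.73. On the log2 scale the change was -0.29, with a 95% interval from -1.0 to 0.43 (limma adjusted p = 0.497), and -0.69 without HdR replicate 2. Its exons share 653 nt with the gene model Gm38092 on the opposite strand.

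Mitf, the master regulator of the lineage, did not pass (ENSMUSG00000035158.15; chromosome 6, 97807052 to 98021349, plus strand). Its WT replicates lay at 24.9, 29.0 and 27.2 and its HdR replicates at 29.4, 24.8 and 25.6, with HdR replicate 1 the highest of all and HdR replicate 2 the lowest. The log2 change was -0.02, with a 95% interval from -0.38 to 0.33 (limma adjusted p = 0.913), and its sign turned with median-of-ratios scaling (0.04), quantile normalisation (0.15) and removal of the length trend (0.35, limma adjusted p = 0.116). Mitf is also used by mast cells, macrophages and other cells from other start sites. A sum over the gene cannot separate the melanocyte form, which starts from the most downstream of these promoters.

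Sox10, the neural crest transcription factor of melanocytes and Schwann cells, stood at 2.84, 2.12 and 4.44 in WT and 1.79, 2.62 and 1.93 in HdR (ENSMUSG00000033006.10; chromosome 15, 79154908 to 79165240, minus strand). WT replicate 3 was the highest, and HdR replicate 2 lay above WT replicate 2. On the log2 scale it changed by -0.38, with a 95% interval from -0.92 to 0.16 (limma adjusted p = 0.241). After length correction it was -0.31.

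**Figure D2:**
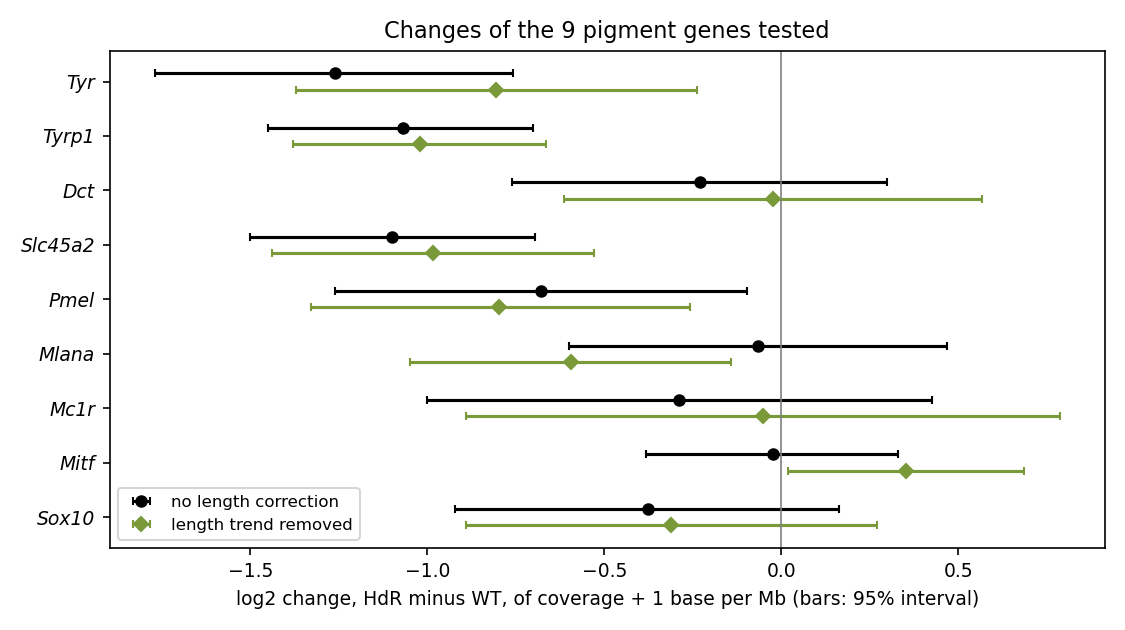
Log2 changes (HdR minus WT, of coverage + 1 base per Mb) of the 9 members tested, without length correction (black circles) and with the length trend removed (green diamonds); bars are 95% intervals of the limma fit. Both intervals lie below 0 for Tyr, Tyrp1, Slc45a2 and Pmel, while that of Mlana does so only with the length trend removed and that of Mitf then lies above 0.

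With the length trend removed, 3 of the 9 members were called lower, in a fit that called 8.48% of all genes lower. These were Tyrp1, Slc45a2 and Pmel. With the replicate block added to that correction 5 were called, against 14.6% of all genes, among them Tyr (limma adjusted p = 0.0308). Tyrp1 was called in both fits and in all 6 that left out a library (limma adjusted p = 0.00471 to 0.0384). Tyr was also called in all 6 (limma adjusted p = 0.00741 to 0.0448). Slc45a2 was called in these fits too (limma adjusted p = 0.00615 to 0.0427), but they kept the set of genes that it had entered through WT alone.

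The members did not keep their proportions within a library. The log2 ratio of Tyr to Dct was -1.47, -1.61 and -1.56 in WT replicates 1 to 3 and -2.80, -3.20 and -2.39 in HdR. The ratio of Tyrp1 to Dct was -0.28, -0.68 and -0.14 in WT and -1.10, -1.50 and -1.24 in HdR. The ratio of Slc45a2 to Dct was -3.64, -4.19 and -3.64 against -6.36, -5.69 and -5.92. Slc45a2 had entered the test through WT samples only, and its HdR values rest on the equivalent of 3.72 to 7 read pairs. No pseudocount was added in these ratios. All these ratios were lower in every HdR library than in every WT library, with mean differences of -1.25, -0.91 and -2.17. The ratio of Pmel to Dct was also lower in each HdR library (mean difference -0.53). The ratio of Mlana to Dct went the other way by less, at -2.01 ± 0.04 in WT and -1.85 ± 0.16 in HdR (SD, n = 3 each). That direction was not kept with the length trend removed, where Mlana changed by -0.60 and Dct by -0.02, neither passing. Against Mitf, Tyrp1 averaged -0.31 ± 0.03 in WT and -1.43 ± 0.29 in HdR. On the same scale Dct overlapped (0.06 ± 0.27 and -0.15 ± 0.48). These ratios describe the libraries, carry the length trend and were not tested. In bulk skin fewer melanocytes and less RNA per melanocyte cannot be told apart.

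**Figure D3:**
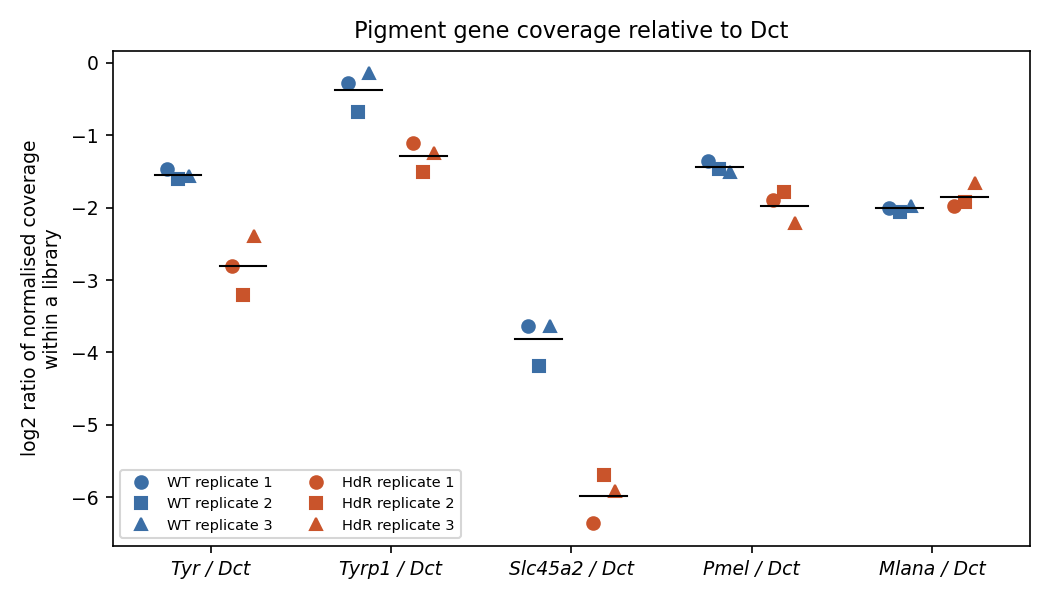
Log2 ratio of normalised coverage of 5 pigment genes to that of Dct within each library; blue symbols are WT, orange symbols HdR, shapes give the replicate number and black bars the means. Ratios of Tyr, Tyrp1, Slc45a2 and Pmel are lower in all 3 HdR libraries, while those of Mlana lie between -2.06 and -1.66 in all 6. HdR values of Slc45a2 rest on the equivalent of 3.72 to 7 read pairs.

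Levels of different genes were compared per kb of the longest annotated transcript. In WT skin Dct (8.30 ± 2.07 bases per Mb per kb), Tyrp1 (8.04 ± 0.45) and Mlana (7.82 ± 1.72) led and did not differ beyond their SDs. Mitf (5.54 ± 0.42) and Pmel (4.98 ± 1.21) followed and overlapped each other. Tyr (1.62 ± 0.34) and Sox10 (1.13 ± 0.43) came next, then Slc45a2 (0.667 ± 0.019), and Mc1r (0.338 ± 0.088) and Oca2 (0.334 ± 0.046) were lowest and did not differ beyond their SDs. In HdR skin the order was Mlana (7.49 ± 1.95), Dct (7.04 ± 1.79) and Mitf (5.44 ± 0.50), and Tyrp1 came after them at 3.63 ± 0.41. Tyrp1 thus went from a level like that of Dct to a lower one, with all 3 HdR values (3.22 to 4.04) under the lowest HdR value of Dct (5.42). Slc45a2 (0.135 ± 0.062), Oca2 (0.174 ± 0.105) and Mc1r (0.264 ± 0.273) were lowest in HdR and overlapped. The order depends on the transcript used: with the median length of coding transcripts Pmel came out highest in WT (16.3) and Mitf in HdR (12.5).

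**Figure D4:**
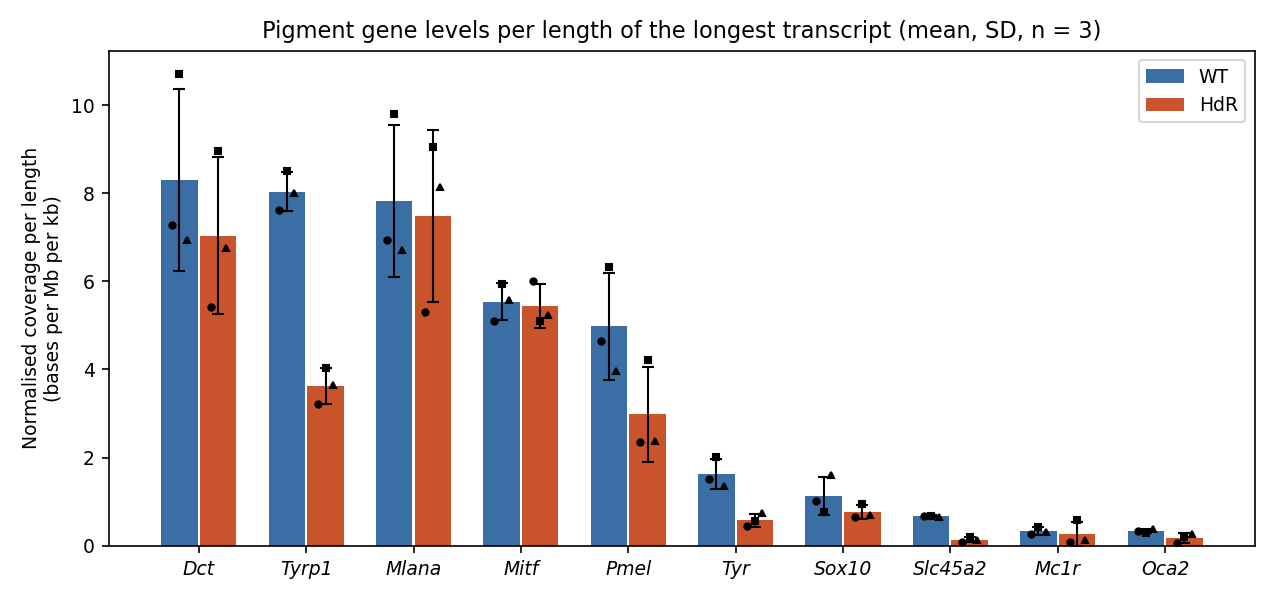
Normalised coverage per kb of the longest transcript for the 10 members, ordered by the WT mean; bars are means, error bars SD (n = 3), and black symbols single libraries with shapes by replicate number. Dct, Tyrp1 and Mlana are level in WT near 8 bases per Mb per kb, and Tyrp1 drops to 3.63 in HdR.

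The rest of the pigment pathway was followed in 4 lists of 78 genes, of which 71 were tested. Of these 19 fell (26.8%, against 17.9% of all genes) and 6 rose (8.45%, against 12.7%). The median change was -0.36. With the length trend removed 3 fell (4.23%, against 8.48%) and 5 rose (7.04%, against 10.9%). These falls depended on single libraries, as did those of all genes. Leaving out WT replicate 1 left 1 gene that fell (1.41%, against 2.25% of all genes), and leaving out WT replicate 3 left 3 (4.23%, against 5.52%). Leaving out HdR replicates 1, 2 and 3 in turn left 7, 3 and 9 (9.86%, 4.23% and 12.7%, against 11.9%, 7.6% and 13.4%). Within each of the 4 lists no more than 3 genes fell once any library other than WT replicate 2 was left out. Of 12 genes of melanosome transporters and other melanocyte genes 4 fell (33.3%, against 17.9% of all genes) and 0 rose. With the length trend removed 1 of them fell (8.33%, against 8.48%). Trpm1, a cation channel gene whose intron holds a microRNA of melanocytes, fell from 6.17 ± 1.03 to 3.46 ± 0.46 (limma adjusted p = 0.0325), and no longer passed with any single library left out (limma adjusted p = 0.0559 to 0.124) or with the length trend removed (-0.24). The copper transporter gene Atp7a, which supplies tyrosinase and is broadly expressed, fell by 0.69 (limma adjusted p = 0.0134; -0.31 and not passing with the length trend removed). Mfsd12 and Slc16a6 were the other two, with changes of -0.49 and -0.56, and neither passed with the length trend removed. Slc24a5, a melanosomal ion exchanger gene, gave 11.9, 13.4 and 9.69 in the WT replicates and 8.53, 8.49 and 9.41 in the HdR replicates. Its groups did not overlap, but it did not pass (-0.36, limma adjusted p = 0.15; -0.53, limma adjusted p = 0.0494 after length correction). Gpr143, the ocular albinism receptor gene, was under 0.35 in every library and was not tested. Rab38, which carries tyrosinase to melanosomes, stood at 42.9 ± 6.67 and 47.0 ± 2.45 and did not pass.

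Of 26 genes of melanosome biogenesis and transport, most of them active in many cell types, 5 fell and 4 rose (9 and 5 with the replicate block, 1 and 3 with the length trend removed). These shares, 19.2% and 15.4%, were near the 17.9% and 12.7% of all genes. Lyst, the lysosomal trafficking regulator mutated in beige mice, fell from 27.7 ± 9.02 to 8.71 ± 2.29 (limma adjusted p = 0.0103). Dtnbp1, a BLOC-1 subunit gene, rose from 51.4 ± 14.7 to 117 ± 11.97 (limma adjusted p = 0.00964). Both passed again with the length trend removed. Also called were Bloc1s2 (0.92) and Ap1g1 (-0.77), which did not pass after that correction. Rab32 rose too (0.78, limma adjusted p = 0.0338) and passed with the length trend removed (0.67, limma adjusted p = 0.0439). With a library left out Rab32 was called in 1 of 6 fits. The genes that carry melanosomes along actin were Rab27a (-0.26), Mlph (-0.22) and Myo5a (-0.72), and none of them passed (limma adjusted p = 0.221, 0.51 and 0.0502), though Myo5a did with the replicate block (limma adjusted p = 0.00757).

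Of 19 signals and receptors tested 7 fell and 1 rose (1 and 0 with the length trend removed). These were 36.8% lower and 5.26% higher, against 17.9% and 12.7% of all genes. With the length trend removed 5.26% were lower, against 8.48%. Edn3, the endothelin that supports melanoblasts, fell from 2.66 ± 0.74 to 1.24 ± 0.27 (limma adjusted p = 0.0383; -0.55 and not passing with the length trend removed). Corin, a dermal papilla protease gene that modifies the agouti pathway, fell by 0.69, Ednra by 0.65 and Mgrn1, the mahoganoid ubiquitin ligase gene, by 0.98, and of these only Mgrn1 passed with the length trend removed (-0.84, limma adjusted p = 0.0337). Each of these 4 lost its call with at least 3 of the 6 libraries left out in turn. The receptor genes of melanoblasts did not pass: Kit read 17.6 ± 0.28 and 16.9 ± 2.55 and Ednrb 11.6 ± 1.70 and 13.5 ± 3.64. Kitl, the KIT ligand gene, changed by -0.24 (limma adjusted p = 0.411). Asip was not analysed here. Of 14 other transcription factors of the lineage tested 3 fell and 1 rose (0 and 2 with the length trend removed), or 21.4% and 7.14%, near the shares of all genes. Tfec, a relative of Mitf that is also expressed in macrophages, rose from 1.57 ± 0.85 to 5.35 ± 1.31 (limma adjusted p = 0.0138). Tfe3 (-0.57), Sox5 (-0.67) and Tfap2b (-0.56) fell, and Pax3 (0.20) did not pass.

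Hair bulbs, where follicular melanocytes load pigment into the growing shaft, were followed through their own genes, and most of these fell. Of 28 genes of the anagen hair bulb and hair shaft 25 fell (89.3%, against 17.9% of all genes) and 0 rose. The median change was -2.12. With the length trend removed 23 of 27 fell (85.2%, against 8.48%). This list, like the other lists, was chosen with earlier results of these data known, so its share is a description. Shh, which is counted in it, entered the test through its WT libraries only. Summed coverage of the 28 genes ran from 808.7 to 1206 bases per Mb in WT and from 106.4 to 243.7 in HdR. No gene of the list was at 0 in every library. Krt35, a hair shaft keratin gene, fell from 34.1 ± 4.73 to 1.91 ± 0.57 (limma adjusted p = 3.03e-04), and Krt75, a companion layer keratin gene, from 32.8 ± 5.22 to 6.73 ± 0.38. The mean log2 level of the list was 3.92, 4.13 and 4.39 in WT replicates 1 to 3 and 1.42, 2.30 and 2.14 in HdR. HdR replicate 1, the lowest of these, was also the HdR library with the least of every member except Mitf, which was highest there. Among WT libraries the order differed: replicate 3 had the highest hair level and the least Tyr, Dct, Pmel, Slc45a2 and Mlana. The part of the hair bulb in the pigment gene changes was not tested. Of 10 genes of the follicle bulge and stem cells Lgr5 (-1.50) and Lhx2 (-1.20) fell and 0 rose. That share lower, 20%, was near the 17.9% of all genes (20% against 8.48% with the length trend removed).

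Other cells that use Mitf, Sox10 or Kit were followed as well. Of 16 Schwann cell genes tested 2 fell and 1 rose (5 and 1 with the replicate block, and 0 to 4 lower with a library left out), with shares lower of 12.5% (17.9% of all genes) and, with the block, 31.2% (27.2% of all genes), and with summed coverage of 492.5 to 529.6 in WT and 529.3 to 592 in HdR. Of these S100b rose (1.09), and Prx (-1.31) and L1cam (-1.13) fell. Of 12 mast cell genes 4 rose and 0 fell, or 33.3% higher against 12.7% of all genes. With the block 7 rose (58.3%, against 18.3%), and with the length trend removed 2 did (16.7%, against 10.9%). The sums of 568.2 to 1093 in WT and 999.2 to 1172 in HdR overlapped. No mast cell gene passed when WT replicate 1, WT replicate 3 or HdR replicate 1 was left out (limma), while 1 did without HdR replicate 2, 2 without HdR replicate 3 and 9 without WT replicate 2. Of 12 macrophage genes 7 rose (58.3%, against 12.7% of all genes) and 0 fell. Their sums were 1285 to 2363 in WT and 3542 to 3998 in HdR, and Lyz2 alone made up means of 585.5 and 1779 of these. The count of 7 became 3 (25%) when any of WT replicate 1, WT replicate 3 and HdR replicate 1 was left out. In these fits 1.7%, 4.19% and 7.28% of all genes were higher. With the length trend removed 5 macrophage genes rose (41.7%, against 10.9%). Cd163, a scavenger receptor gene, rose by 1.43 and Lyz2 by 1.67. Gpnmb, which both melanocytes and macrophages express, did not pass (0.03). No gene of these lists was at 0 in every library, and their part in the totals of Mitf, Sox10 and Kit was not tested. Of 9 epidermal keratinocyte genes, the check of the labelled tissue, all were detected, with sums of 11720 to 15350 over the 6 libraries. Krt1 (-1.03) and Krt14 (-0.71) fell and Krtdap rose (0.71). These shares, 22.2% and 11.1%, were near the 17.9% and 12.7% of all genes. With the length trend removed Krt14 passed, Krt1 did not (-0.89) and Krtdap stood at 0.04.

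**Figure D5:**
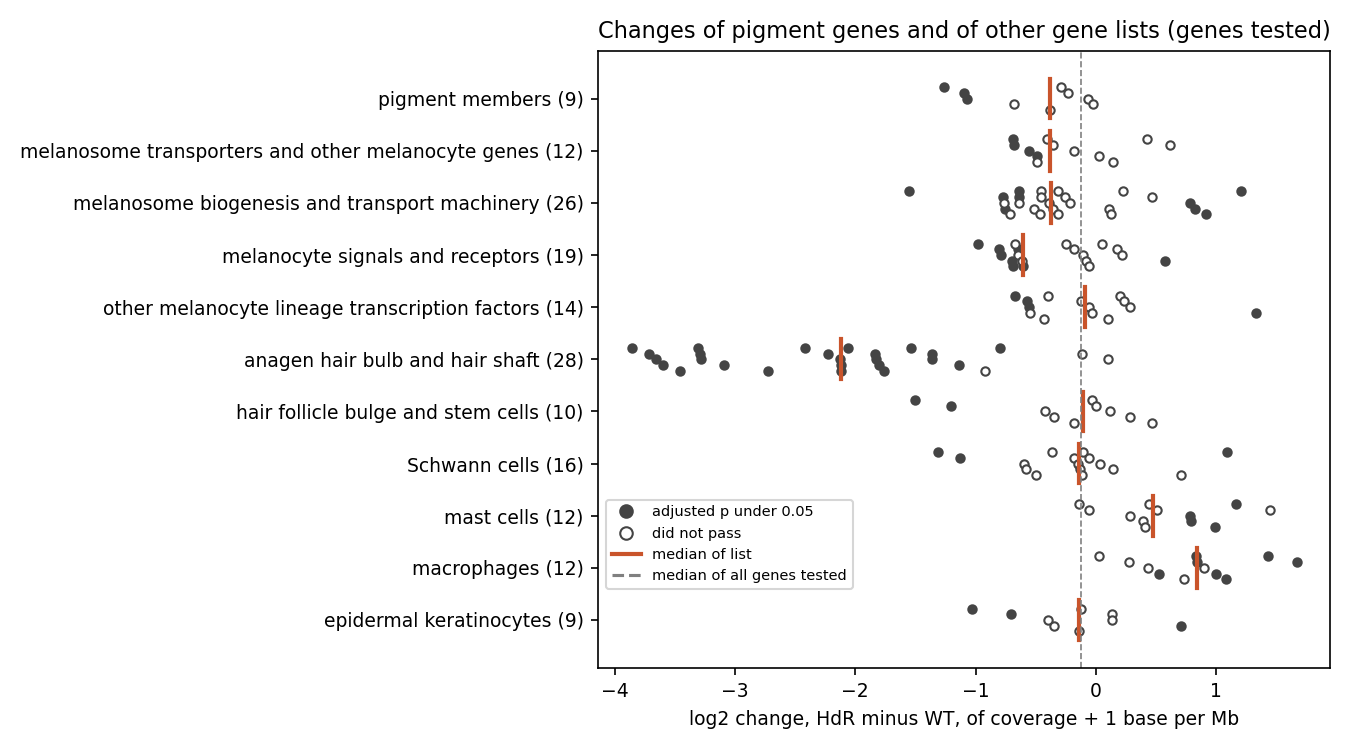
Log2 change (HdR minus WT, of coverage + 1 base per Mb) of each gene tested in the pigment genes and 10 other lists; filled circles passed at an adjusted p under 0.05, open circles did not, orange bars are list medians and the dashed line is the median of all genes tested. The hair bulb list lies far to the left (median -2.12), and the pigment genes split into 3 filled circles between -1.26 and -1.07 and 6 open circles nearer 0.

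Genes whose level ran most like the mean standardised level of the 9 tested members over the 6 libraries were Plekha8, Trim14, Ghitm, S100a7a, Ly6g6d, Golga7b, Krtap6-5, Krtap16-3, Cdh6 and Zfp941, with Pearson's r from 0.977 to 0.984. The points share library depth and the genotype groups, and r is given as a description. The mean profile itself was 0.21, 0.96 and 0.42 in WT and -0.97, 0.02 and -0.64 in HdR. In both genotypes replicate 2 was the highest. Krtap6-5 and Krtap16-3, hair keratin-associated genes, fell by 1.36 and 1.16 (limma adjusted p = 0.0287 and 0.0431), while Plekha8 and Ghitm followed the profile with changes of only -0.19 and -0.10 that did not pass.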

How the data were processed

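Mouse ear skin RNA of 3 WT and 3 HdR samples was sequenced. The deposited table holds coverage, a signal of aligned bases summed per gene by the authors, not scaled for depth or gene length. Per the submitters' processing notes the build was GRCm38; the aligner, counter, annotation and strandedness behind it were not given in the sources used here. Whole reads were not counted: 1656 of them equal 300, the bases of a pair of 150-base reads. The design foresaw this, and limma (3.58.1, R 4.3.3) was run with an intensity-dependent prior variance and robust moderation on log2(value + 1). Libraries were scaled by trimmed means of M values (30% of ratios and 5% of intensities trimmed), and the test, two-sided, took genes that reached 1 base per Mb in 3 or more libraries. The fit was tested on simulated data, in which only genes at 5 bases per Mb or more were changed and no length trend was set. It does not cover low members such as Slc45a2, Mc1r and Sox10, or the length trend.

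The members and lists were chosen with earlier results of these data known. Named genes were all members, up to 4 genes per list with the smallest p, a fixed set of pigment genes, the 10 genes most like the members' mean profile, and Rbck1; others were named after their values were seen. Alternatives were other scalings, filters and a pseudocount of 0.1, a replicate block, each library left out (same genes tested), and removal from each library of a spline (4 degrees of freedom) on log2 length of the longest GENCODE M21 transcript, which 23087 of 23518 symbols had. After removal of genotype means, same-numbered libraries correlated across genes at 0.163, 0.416 and 0.366, and differently numbered ones at -0.377 to 0.159. WT replicate 1 was about as close to HdR replicate 3 (0.159) as to HdR replicate 1 (0.163). The data thus give a hint of pairing for replicates 2 and 3 only, and the labels state none. Pairs entered only the fits with the replicate block. Intervals are 95% intervals of the fit.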

Additional observations from a re-analysis of the deposited data

How the results depend on the processing

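No pigment gene was called higher under any of the 15 alternatives, and 2 to 5 were called lower. The count of 5 came from removal of the length trend together with the replicate block, and the count of 2 from the filter at 5 bases per Mb, which left 6 members tested. The replicate block alone gave 4 and changed the call of no member other than Pmel. Signs turned for Mlana and Mitf, neither of which passed where its sign had turned. Mlana stood at 0.163 with quantile normalisation and ran from -0.20 to 0.134 with a library left out. Mitf stood at 0.0371 with median-of-ratios scaling, 0.151 with quantile normalisation and 0.352 with the length trend removed, with or without the block, and ran from -0.0958 to 0.0442 with a library left out. Over all genes 1904 were called higher and 2701 lower. These became 917 and 4305 with scaling to total bases (17.6% of calls higher, against 41.3%), 2363 and 2084 with quantile normalisation (53.1%) and 1017 and 1127 without the filter. The lower count was 4094 with the replicate block and 1263 with the length trend removed. With a library left out the higher count ran from 256 (without WT replicate 1) to 2663 and the lower from 339 to 3434. The causes were not tested. Slc45a2, Oca2 and Mc1r rest on few read pairs in HdR libraries, which limits the precision of their changes.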
